A study of Sus scrofa with 4 samples.

Results

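The enzymes that hydroxylate and cross-link collagen were examined in granulosa cells from porcine antral follicles, through the rows of the count table for 9 genes given by name among its 29884 rows. They comprise 3 collagen prolyl 4-hydroxylase subunits (P4HA1, P4HA2 and P4HA3), 3 lysyl hydroxylases (PLOD1, PLOD2 and PLOD3) and 3 lysyl oxidases (LOX, LOXL1 and LOXL2). Each of the 9 had a row, and 8 passed the filter on low counts, the exception being P4HA3. The study read the cell cycle of granulosa cells by flow cytometry and sequenced RNA from what remained of them in 4 libraries, 2 with a high G0/G1 distribution and 2 with a low one. G0/G1 is the part of the cycle before DNA is copied. All 4 libraries come from the same tissue and cell type of Sus scrofa, no treatment is named in the labels, and nothing in the labels ties the libraries of a group to separate animals. The p-values therefore reflect only the spread between these libraries, which may be technical.

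Collagen chains are modified in the endoplasmic reticulum before they leave the cell. Prolyl 4-hydroxylases make the hydroxyproline that holds the triple helix together at body temperature, and lysyl hydroxylases make the hydroxylysine that carries sugars and takes part in cross-links. Both kinds of enzyme need oxygen, iron, 2-oxoglutarate and ascorbate. Outside the cell, the copper enzymes of the lysyl oxidase family oxidise lysine and hydroxylysine side chains so that collagen and elastin can be cross-linked. In human and mouse cells P4HA1, P4HA2, PLOD1, PLOD2, LOX and LOXL2 are known to be induced by hypoxia-inducible factor, and the title of the study names hypoxia. In the follicle, granulosa cells face a basement membrane built on type IV collagen, while the fibrillar collagens lie mainly in the theca and stroma outside it.

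Library totals ran from 27442850 to 32674921 counts. Levels are given as CPM (counts relative to the scaled library total), which do not correct for gene length, so levels are compared between libraries and not between genes. The granulosa marker INHA, the inhibin alpha subunit, was abundant, at 10570 and 7996 CPM in the high and 7746 and 6701 CPM in the low G0/G1 libraries. Granulosa markers did not share a direction. Of 9 tested, 5 lay below both low libraries in both high ones and 3 above, against 29.8% and 26.8% of all genes tested. FSHR had 22.5 and 26.0 CPM in high against 81.6 and 85.8 CPM in low libraries, and AMHR2 had 89.9 and 56.6 against 30.7 and 26.2 CPM. CYP19A1 was at 0 in each library, while its paralog CYP19A3 had 1142 CPM or more. Low replicate 2 stood apart in markers of the follicle wall. The summed level of 9 fibroblast and stroma markers was 89.4 and 118 CPM in high, against 39.4 and 1430 CPM in low G0/G1 libraries, and 8 of the 9 were highest in low replicate 2. For 5 smooth muscle markers, of which 4 were highest in that library, the sums were 36.8 and 43.3 CPM against 23.2 and 198.7 CPM. Of 4 theca steroid cell markers 3 were highest there, with sums of 91.6 and 239.6 CPM against 187 and 422 CPM. Among them the enzyme gene CYP17A1 had 0.771 and 1.02 CPM against 0.125 and 51.5 CPM, and STAR 9.62 and 1.33 against 1.76 and 39.4 CPM. INSL3 was higher in both low libraries, at 17.6 and 30.0 against 75.3 and 260 CPM. CYP11A1 was highest in high replicate 2, at 63.7 and 207 against 110 and 71.3 CPM. Endothelial markers summed to 17.1 and 48.2 CPM in the high and 7.27 and 56.5 CPM in the low libraries, leukocyte markers to 1.41 and 3.19 against 0.658 and 2.74 CPM, and red cell markers to 27.5 and 19.9 against 9.25 and 15.7 CPM. Of 6 oocyte markers, ZP2 and ZP4 were at 0 in each library and GDF9 had 8.68 and 9.33 against 6.40 and 11.5 CPM. In bulk RNA, fewer cells of a type and less RNA per cell cannot be told apart.

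P4HA2 and PLOD1 were the members with the widest gaps between the nearest libraries of the groups. P4HA2 was lower in both high G0/G1 libraries, at 52.3 ± 2.21 CPM against 176 ± 52.0 CPM in the low ones (SD, n = 2 each), and PLOD1 stood at 224 ± 8.22 CPM against 793 ± 265 CPM. PLOD3 and LOX were also below both low libraries in both high ones, by less, while P4HA1 and PLOD2 had nearly the same mean in both groups. By edgeR's quasi-likelihood test on 14352 genes, with p-values adjusted by Benjamini and Hochberg's method, 0 of the 8 tested members passed an adjusted p of 0.05 in either direction, as did 0% of all genes tested. At an unadjusted p under 0.05, 3 of 8 were lower (P4HA2, PLOD1 and PLOD3), against 10.8% of all genes tested, and 0 were higher, against 9.92%. DESeq2 called 2 of the 8 lower, P4HA2 and PLOD1, against 5.48% of the genes it tested, and 0 higher, against 5.79%. Limma-voom called 0 after adjustment, as for 0% of all genes, with 3 lower at an unadjusted p under 0.05, against 11.9% of all genes. Both high libraries lay below both low ones in 4 of the 8, against 29.8% of all genes tested, and above them in 0, against 26.8%.

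**Figure D1:**
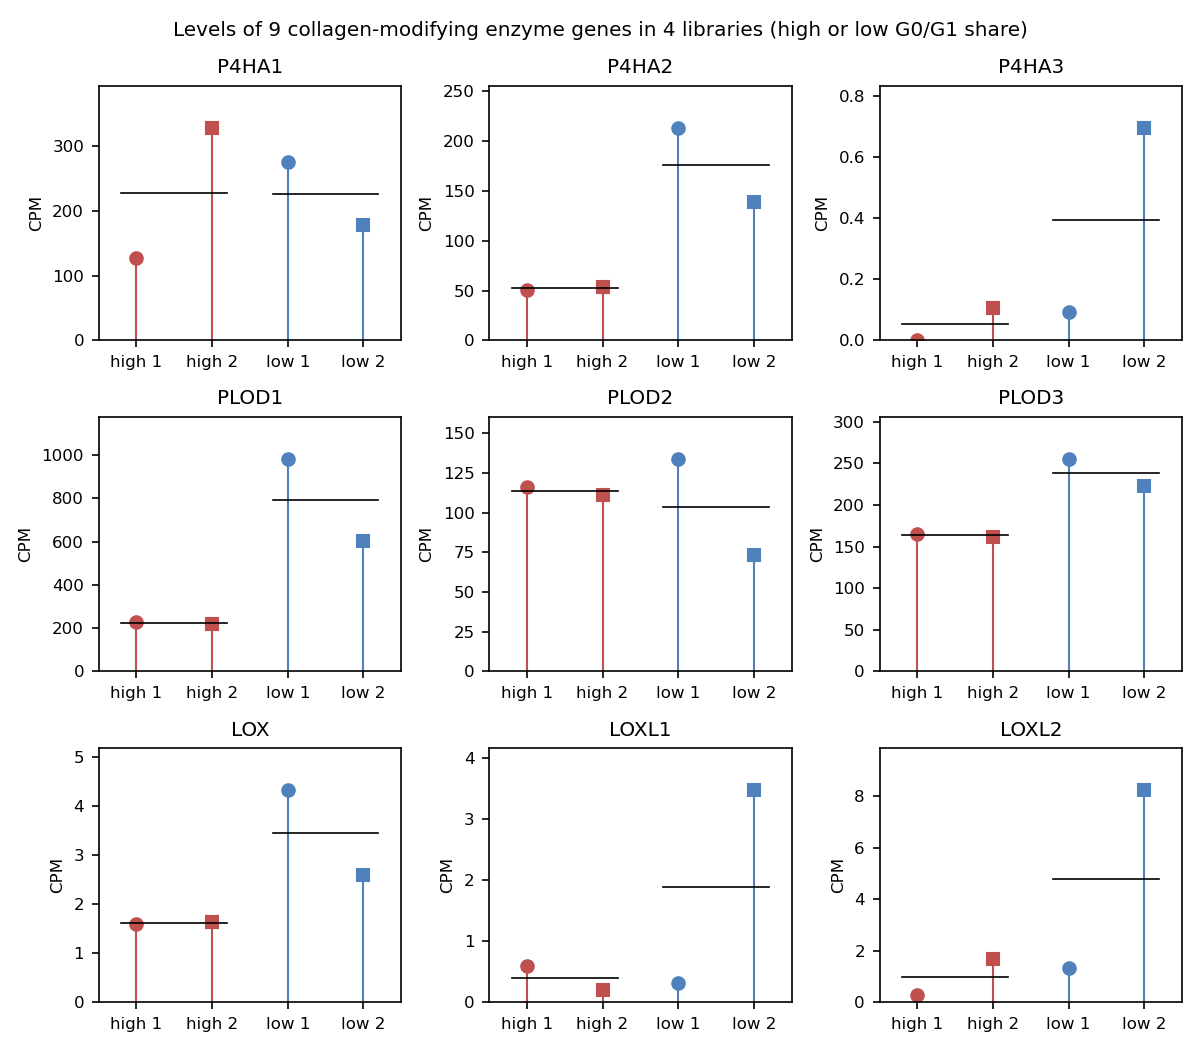
CPM of each of the 9 enzyme genes in the 4 libraries, high G0/G1 (red) left of low G0/G1 (blue), each panel with its own axis from 0; the short lines are group means. P4HA2, PLOD1, PLOD3 and LOX have both red points below both blue ones, and LOXL1, LOXL2 and P4HA3 have their highest point in low replicate 2.

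The prolyl 4-hydroxylase subunits differed from each other in how they lay across the libraries. P4HA1 (chromosome 14, 75827207 to 75919121 in Sscrofa11.1) encodes the catalytic subunit of the main form of the enzyme in most tissues. It had 126 and 327 CPM in the high G0/G1 libraries and 274 and 178 CPM in the low ones. The groups overlapped fully, since the highest and the lowest library were both high ones. Its log2 fold change, high minus low, was 0.00 ± 0.50 (SE, edgeR adjusted p = 0.999), with a 95% interval from -1.27 to 1.27. The high libraries differed from each other by 1.37 on the log2 scale in P4HA1, while the median absolute difference between them was 0.42 over all genes tested. By edgeR, dropping high replicate 2 moved the estimate to -0.84, and dropping high replicate 1 moved it to 0.52. The low libraries mattered as well, since the estimate became -0.25 once their replicate 2 was dropped and 0.42 once their replicate 1 was. The direction of P4HA1 thus depended on which library was dropped, in either group.

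P4HA2 (chromosome 2, 134502210 to 134595444) encodes the alternative catalytic subunit, which is prominent in cartilage and bone cells. It had 50.8 and 53.9 CPM in the high G0/G1 libraries, against 213 and 139 CPM in the low ones. The high libraries agree within counting error, with 95% Poisson intervals of 48.2 to 53.4 and 51.2 to 56.7 CPM, and the lower of the low libraries was still 2.58 times the higher of the high ones. The log2 fold change was -1.75 ± 0.28 (SE, edgeR adjusted p = 0.132), and its unadjusted p of 0.00124 ranked 132 among all genes tested. DESeq2 gave -1.73 ± 0.35 (adjusted p = 6.4e-05). Without low replicate 1 the edgeR estimate was -1.35 (adjusted p = 0.322), and DESeq2 then no longer called P4HA2 or PLOD1.

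P4HA3 (chromosome 9, 8627365 to 8681804), the third catalytic subunit, was near the limit of detection. It had 0 and 3 counts in the high G0/G1 libraries and 3 and 20 counts in the low ones. At this depth a count of 0 leaves room for 0.101 CPM, the level of 3 counts in that library, while the upper end of its two-sided 95% Poisson interval is 0.124 CPM. The 20 counts in low replicate 2 correspond to 0.693 CPM with a 95% Poisson interval of 0.423 to 1.07 CPM. The other 3 libraries were thus not distinguishable at this depth, and low replicate 2 stood above them. These intervals cover counting error only.

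Among the lysyl hydroxylases, PLOD1 had the widest gap between the groups. PLOD1 (chromosome 6, 71987938 to 72019712) hydroxylates lysines within the triple helix, and its loss causes a form of Ehlers-Danlos syndrome in humans. It had 229.6 and 218 CPM in the high G0/G1 libraries, against 980.2 and 605 CPM in the low ones. The high libraries differed by 0.08 on the log2 scale, the low ones by 0.70, and the lower of the low libraries was 2.64 times the higher of the high ones. The log2 fold change was -1.82 ± 0.31 (SE, edgeR adjusted p = 0.138), and DESeq2 gave -1.80 ± 0.36 (adjusted p = 4.3e-05). With 1 library left out it ranged from -2.12 to -1.37, the smallest without low replicate 1 (edgeR adjusted p = 0.331).

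PLOD2 (chromosome 13, 86402673 to 86513167) hydroxylates lysines in the end regions of collagen chains, which sets the kind of cross-link they form. It had 116 and 111 CPM in the high G0/G1 libraries, inside the range of 133.5 and 73.1 CPM in the low ones. PLOD2's log2 fold change was 0.14 ± 0.33 (SE, edgeR adjusted p = 0.842), with a 95% interval from -0.70 to 0.97. Leaving out low replicate 1 gave 0.70 and leaving out low replicate 2 gave -0.22, so the low libraries set its direction.

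PLOD3 (chromosome 3, 8911787 to 8919525) also transfers galactose and glucose to hydroxylysine, and in mice it is needed for type IV collagen and basement membranes. It had 165 and 162 CPM in the high G0/G1 libraries, against 255 and 222 CPM in the low ones. All 4 values were separated by group, with the narrowest gap among the separated members, at 1.35 times between the nearest libraries. On the log2 scale the difference was -0.54 ± 0.20 (SE, edgeR adjusted p = 0.228, unadjusted p = 0.0426; DESeq2 adjusted p = 0.208), and with 1 library left out it ranged from -0.63 to -0.38.

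**Figure D2:**
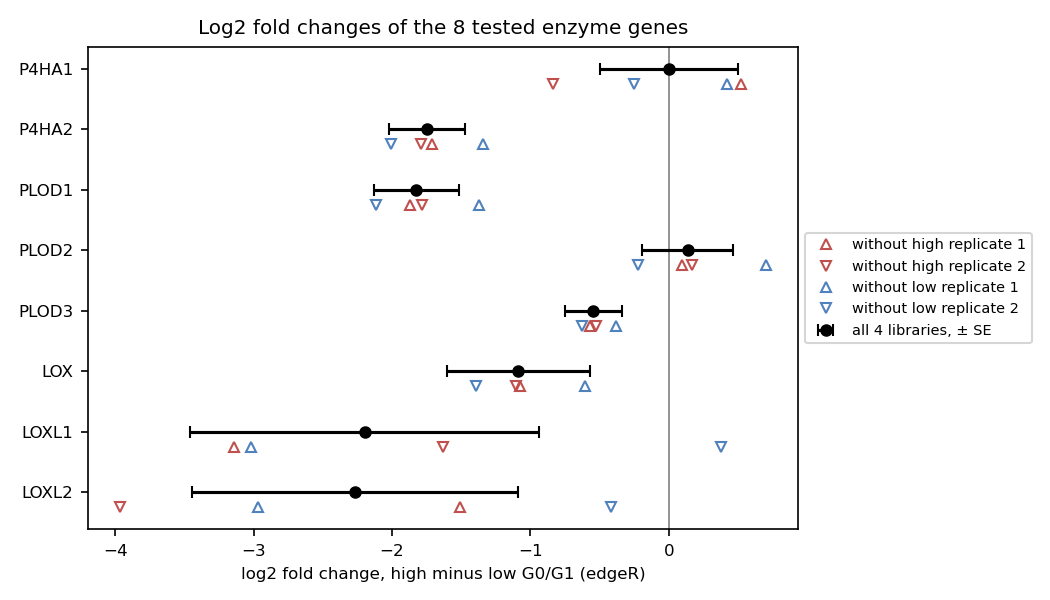
Log2 fold change (high minus low G0/G1, edgeR) of the 8 tested enzyme genes with all 4 libraries (black, ± SE) and with each library left out (open triangles). P4HA2, PLOD1, PLOD3 and LOX stay below 0 in each case, while P4HA1, PLOD2 and LOXL1 cross 0.

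The lysyl oxidases had few reads. LOX (chromosome 2, 125595115 to 125607026), the enzyme that starts cross-linking of collagen and elastin, had 48 and 47 counts in the high G0/G1 libraries, against 138 and 75 counts in the low ones. These correspond to 1.61 and 1.65 CPM against 4.33 and 2.60 CPM. The groups were separate, yet the 95% Poisson intervals of high replicate 2 (1.21 to 2.19 CPM) and low replicate 2 (2.04 to 3.26 CPM) overlap. For LOX the log2 fold change was -1.09 ± 0.52 (SE, edgeR adjusted p = 0.299; DESeq2 adjusted p = 0.292), and it was -0.61 without low replicate 1.

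LOXL1 (chromosome 7, 59481410 to 59505161), which in mice is needed to lay down elastic fibres, had 18 and 6 counts in the high G0/G1 libraries and 10 and 100 counts in the low ones. That is 0.604 and 0.211 CPM against 0.314 and 3.47 CPM, so the groups overlapped and 1 low library stood apart. LOXL1's log2 fold change was -2.20 ± 1.26 (SE, edgeR adjusted p = 0.365). Without low replicate 2 it was 0.38 (edgeR adjusted p = 0.934).

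LOXL2 (chromosome 14, 7435861 to 7540699), which cross-links type IV collagen, had 9 and 48 counts in the high G0/G1 libraries and 43 and 237 counts in the low ones. In CPM these were 0.302 and 1.68 against 1.35 and 8.21, and high replicate 2 lay above low replicate 1. The log2 fold change was -2.26 ± 1.18 (SE, edgeR adjusted p = 0.329). It was -0.41 without low replicate 2 (edgeR adjusted p = 0.918) and -3.96 without high replicate 2 (edgeR adjusted p = 0.281), where DESeq2 called it lower (adjusted p = 0.0252).

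The library that was highest for LOXL1, LOXL2 and P4HA3 was also the one in which 8 of 9 fibroblast and stroma markers were highest. Among them LUM, the proteoglycan lumican, had 0.134 and 0.737 CPM in the high and 0.251 and 13.9 CPM in the low G0/G1 libraries, and DCN, the proteoglycan decorin, had 1.91 and 6.07 against 1.07 and 77.9 CPM. Low replicate 2 was the highest library in 24.3% of all genes tested. The part of stromal RNA in the levels of these 3 enzyme genes was not tested. For P4HA2, PLOD1, PLOD3 and LOX the highest library was low replicate 1, where the summed level of the fibroblast and stroma markers was lowest. The collagen genes COL1A1, COL1A2 and COL3A1 are part of that sum and were lowest there, as were DCN, PDGFRA and POSTN. LUM, THY1 and TCF21 were not lowest in that library. The estimates of P4HA2, PLOD1, PLOD3 and LOX without low replicate 2 were -2.01, -2.12, -0.63 and -1.39. Each lay farther from 0 than with all 4 libraries, which must follow when the lower of the low libraries is left out. The part of stromal RNA in these 4 genes was not tested either.

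**Figure D3:**
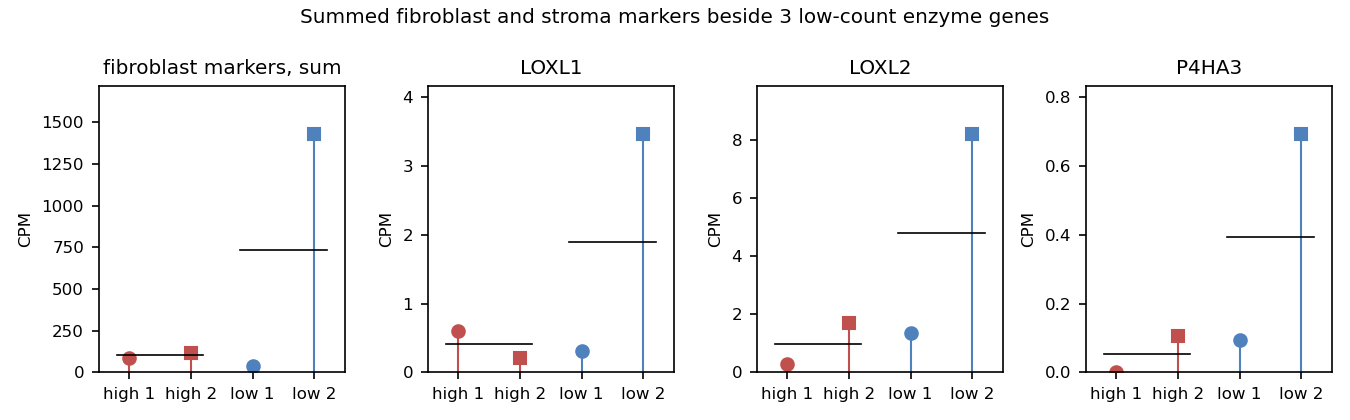
Summed CPM of 9 fibroblast and stroma markers (left) and CPM of LOXL1, LOXL2 and P4HA3 by library, high G0/G1 (red) left of low G0/G1 (blue); short lines are group means. Each panel is highest in low replicate 2, at 1430 CPM for the marker sum.

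Count ratios between related enzymes within a library do not depend on how libraries are scaled. The ratio of PLOD2 to PLOD1 counts was 0.505 and 0.509 in the high G0/G1 libraries, against 0.136 and 0.121 in the low ones. On the log2 scale it averaged -0.98 ± 0.01 against -2.96 ± 0.12 (SD, n = 2 each), a difference of 1.98 between the groups. PLOD3 to PLOD1 was 0.719 and 0.743 against 0.260 and 0.367, a log2 difference of 1.24. The balance of the 3 lysyl hydroxylase genes was therefore close to equal between the high libraries and differed from that of both low ones, with PLOD1 taking 44.97% and 44.4% of their summed counts in high and 71.6% and 67.2% in low G0/G1 cells.

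The ratio of P4HA2 to P4HA1 was 0.402 and 0.165 in the high G0/G1 libraries, against 0.775 and 0.781 in the low ones. Here the low libraries were close to each other, and the high ones were apart, with a log2 difference of -1.59 between the groups. LOXL1 to LOX and LOXL2 to LOX overlapped between the groups, with LOXL2 to LOX at 0.188 and 1.02 in high and 0.312 and 3.16 in low libraries. Of 6 ratios, 4 were separate between the groups, among them P4HA3 to P4HA1, which rests on 3 counts or fewer in 3 libraries. These 4 have PLOD1 or P4HA1 as a shared denominator, so they are not independent of each other. The share of separate ratios over other gene pairs was not computed, so the count has no background to be read against. A two-sided exact permutation test of 2 against 2 libraries cannot give a p below 0.333, which these 4 ratios had (0.50 after Benjamini-Hochberg adjustment over the 6), while the exact p was 1 for LOXL1 to LOX and 0.667 for LOXL2 to LOX. At this size the exact test therefore does not bear on whether related enzymes moved unequally.

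**Figure D4:**
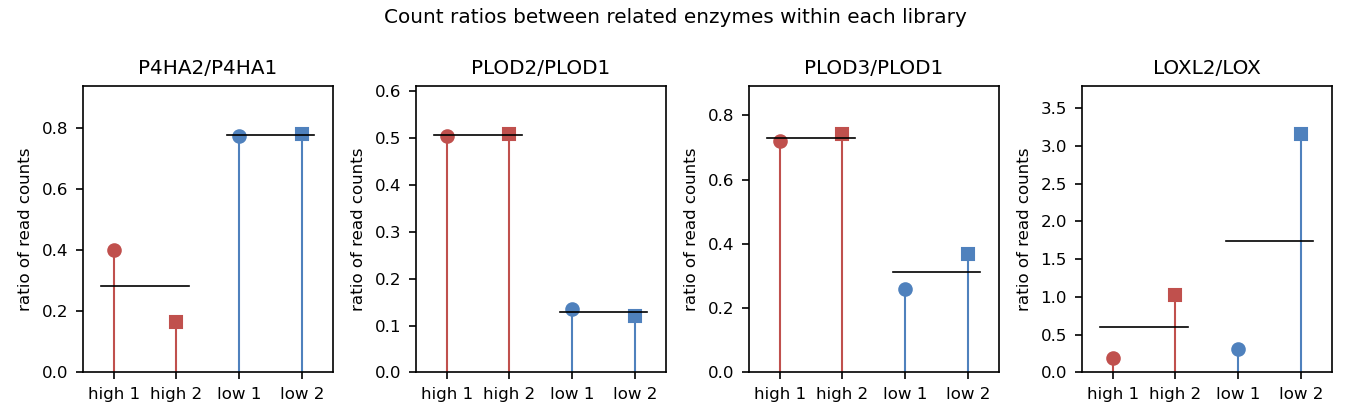
Ratio of read counts between related enzymes in each library, high G0/G1 (red) left of low G0/G1 (blue), axes from 0; short lines are group means. PLOD2/PLOD1 is 0.505 and 0.509 in high against 0.136 and 0.121 in low, and LOXL2/LOX overlaps between the groups.

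Of 17 tested genes listed as partners in collagen folding and hydroxylation, 14 had a negative log2 fold change, with a median of -0.27, while over all genes tested 50.6% were negative with a median of -0.01. The list also holds LOXL3 and LOXL4, lysyl oxidase relatives that act outside the cell, at 0.16 and -1.51 on the log2 scale, and 13 of the other 15 were negative. P4HB, protein disulfide isomerase and the shared beta subunit of the prolyl 4-hydroxylases, had 779 and 679 CPM in high against 1497 and 1383 CPM in low G0/G1 cells. Its log2 fold change was -0.98 ± 0.23 (SE, edgeR adjusted p = 0.169; DESeq2 adjusted p = 0.00588). FKBP10, a prolyl isomerase that assists PLOD2, had 438 and 346 CPM against 743 and 783 CPM (-0.96 ± 0.23). COLGALT1, which adds galactose to hydroxylysine, had -0.63 ± 0.21, and P3H4, a partner of the lysyl and prolyl 3-hydroxylase complexes, -0.53 ± 0.20. After adjustment edgeR called 0 of the 17, with 4 lower and 1 higher at an unadjusted p under 0.05. Over all genes tested, here and for the lists that follow, these shares were 10.8% lower and 9.92% higher, and those called by DESeq2 were 5.48% lower and 5.79% higher. The 2 that DESeq2 called, both lower, were P4HB and FKBP10. DESeq2 called fewer of this list without high replicate 2 or without either low library. Changes of this kind, here and for the lists that follow, have to be read beside those of the whole table. Over all genes tested DESeq2 also called fewer under these omissions, and more without high replicate 1.

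In the list of procollagen export and propeptide cleavage, 6 of 11 tested members were lower and 5 higher, with a median of -0.13. ADAMTS2, the protease that removes the amino-terminal propeptide of fibrillar procollagens, had 13.3 and 6.81 CPM in the high G0/G1 libraries against 43.4 and 53.5 CPM in the low ones. Its log2 fold change was -2.27 ± 0.39 (SE, edgeR adjusted p = 0.142; DESeq2 adjusted p = 2.6e-05). MIA3, which loads procollagen into transport carriers, went the other way at 96.1 and 144 CPM against 76.0 and 65.5 CPM (0.76 ± 0.27). TLL1, a propeptide protease, had -0.60 ± 0.26, and the coat protein gene SEC24D 1.10 ± 0.60, which was 0.04 without high replicate 2. EdgeR called 0 of the 11 after adjustment, with 1 lower and 2 higher at an unadjusted p under 0.05, whereas DESeq2 called 1, ADAMTS2, and also 2 higher without high replicate 1.

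The collagens on which these enzymes act fell into separate patterns. The main type IV chains of basement membranes were higher in high G0/G1 cells, with COL4A2 at 3018 and 3300 CPM against 1328 and 1455 CPM in the low libraries, and COL4A1 at 2260 and 2046 against 1056 and 1260 CPM. Their log2 fold changes were 1.18 ± 0.24 (SE, edgeR adjusted p = 0.155; DESeq2 adjusted p = 1.2e-04) and 0.89 ± 0.24 (edgeR adjusted p = 0.176; DESeq2 adjusted p = 0.00862). These are opposite in sign to those of P4HA2, PLOD1 and PLOD3. The other type IV chains did not share a direction. COL4A5 and COL4A6 were at 0.42 ± 0.22 and 0.17 ± 0.24, and COL4A3 at -0.24 ± 0.34. COL4A4 was lower in both high libraries, at 63.6 and 44.4 against 93.6 and 84.8 CPM (-0.72 ± 0.25). COL18A1, the core protein that yields endostatin, was lower, at 6.57 and 11.2 CPM against 71.0 and 69.0 CPM (-2.98 ± 0.33, edgeR adjusted p = 0.125; DESeq2 adjusted p = 2.4e-11), as was COL8A1, a chain of a short-chain network collagen, at 1.14 and 1.02 against 5.21 and 14.2 CPM (-3.17 ± 0.63). The COL8A1 estimate was -2.25 without low replicate 2, where DESeq2 no longer called it (adjusted p = 0.299). Of 13 tested network and beaded collagens 8 were lower and 5 higher, with a median of -0.72, which was 1.04 without low replicate 2. EdgeR called 0 after adjustment, with 3 lower and 2 higher at an unadjusted p under 0.05, whereas DESeq2 called 2 in each direction. With low replicate 1 left out it called 5 lower and 0 higher, and with low replicate 2 left out 1 lower and 0 higher.

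Of 11 fibrillar collagen genes in the table, 8 were highest in low replicate 2, as were 24.3% of all genes tested. The 8 include COL2A1 and COL5A3, which had 3 and 17 counts in that library and were not tested. COL1A1 had 34.3 and 27.7 CPM in the high G0/G1 libraries and 16.3 and 390.0 CPM in the low ones, COL1A2 had 23.7 and 25.3 against 9.78 and 454 CPM, and COL3A1 had 24.8 and 36.9 against 6.55 and 478 CPM. These 3 genes are also on the fibroblast and stroma list. The groups overlapped without such a gap in COL5A2, at 54.0 and 108 against 46.6 and 116 CPM, and COL27A1 was highest in a high library, at 4.76 and 1.79 against 3.01 and 2.01 CPM. Of 7 tested members 6 were lower, with a median log2 fold change of -1.40, but without low replicate 2 all 8 then tested were higher, with a median of 1.14. COL11A1, a minor fibrillar chain, had -1.23 ± 0.67 (SE), and 0.01 without low replicate 2. EdgeR called 0 of the 7, with 0 at an unadjusted p under 0.05, and DESeq2 also called 0. With low replicate 1 left out DESeq2 called 4 lower, with high replicate 2 left out 1 higher, and with low replicate 2 left out 1 higher, COL3A1.

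Of 15 tested elastic fibre genes, which include substrates and partners of the lysyl oxidases, 11 were lower in high G0/G1 cells, and the median log2 fold change was -0.85. FBLN1, the matrix glycoprotein fibulin 1, had 102 and 52.3 CPM against 159 and 265 CPM (-1.46 ± 0.43, SE), FBN1, the microfibril protein fibrillin 1, 65.1 and 38.9 against 92.1 and 106 CPM (-0.93 ± 0.30), and FBLN2 7.31 and 3.65 against 10.4 and 12.0 CPM (-1.03 ± 0.45). MFAP2, a microfibril protein, had 1.99 ± 0.98, and -0.31 without high replicate 1. ELN, the elastin gene, had 2.72 and 3.33 CPM in high and 0.0314 and 4.61 CPM in low G0/G1 cells. EdgeR called 0 after adjustment, with 2 lower and 0 higher at an unadjusted p under 0.05, whereas DESeq2 called 1, FBLN1, with 4 lower without high replicate 1 and 0 lower without any 1 of the others. It called 1 higher without high replicate 2 and 1 without low replicate 2. The FBLN2 estimate was -1.62 without high replicate 1. In this list 11 of the 16 genes in the table were highest in low replicate 2, as were 24.3% of all genes tested. The 11 include MFAP5, which had 2 counts in that library and was not tested. Without low replicate 2, 6 of 14 tested were lower, with a median of 0.22.

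**Figure D5:**
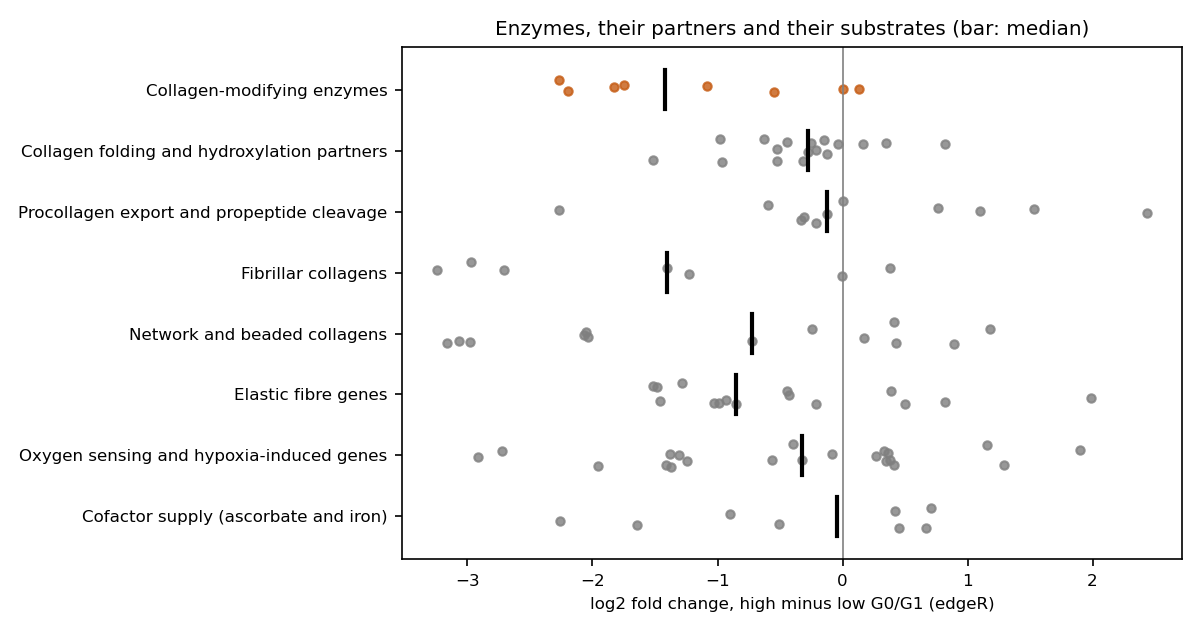
Log2 fold changes (high minus low G0/G1, edgeR) of the 8 tested enzyme genes (orange) and of the tested genes of 7 related lists (grey), with list medians as black bars. The medians run from -1.42 for the enzymes and -1.40 for fibrillar collagens to -0.05 for cofactor supply, and without low replicate 2 those of the first 2 were -0.52 and 1.14.

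Because both hydroxylase families use oxygen and several members are hypoxia targets, the genes of oxygen sensing and hypoxia were set beside them. Of 21 tested, 12 were lower and 9 higher in high G0/G1 cells (median -0.32 on the log2 scale). LDHA, which makes lactate, had 158 and 78.5 CPM in high against 980.1 and 578 CPM in low G0/G1 cells. BNIP3, a mitophagy receptor, had 74.2 and 98.3 CPM against 239 and 188 CPM, the glycolytic enzyme gene PGK1 had 187 CPM in both high libraries against 529 and 354 CPM, and the glucose transporter gene SLC2A1 had 41.1 and 36.7 against 218 and 84.2 CPM. Their log2 fold changes were -2.72 ± 0.47, -1.31 ± 0.26, -1.24 ± 0.27 and -1.96 ± 0.48 (SE). SLC2A1 was at -1.05 without low replicate 1, where DESeq2 no longer called it (adjusted p = 0.35), and LDHA at -3.32 without high replicate 1. Other genes of the list lay in the opposite direction, here named after their values were seen. EGLN1, a prolyl hydroxylase that marks HIF1A for breakdown, had 146 and 422 CPM in high against 84.0 and 68.5 CPM in low G0/G1 cells (1.90 ± 0.53, SE; edgeR adjusted p = 0.179; DESeq2 adjusted p = 0.00736). ADM, the peptide hormone adrenomedullin, had 180.5 and 167 against 98.4 and 57.7 CPM (1.15 ± 0.31; DESeq2 adjusted p = 0.025). NDRG1 overlapped between the groups, at 64.0 and 258 against 90.1 and 41.5 CPM. EdgeR called 0 of the list after adjustment, with 8 lower and 2 higher at an unadjusted p under 0.05, against 10.8% and 9.92% of all genes tested. DESeq2 called 8 lower and 2 higher, EGLN1 and ADM, against 5.48% and 5.79%. DESeq2 called fewer of the list lower whichever library was left out. Over all genes tested it also called fewer lower under these omissions, except without high replicate 1, where it called more. In 4 of the 8 tested enzyme genes, P4HA2, PLOD1, PLOD3 and LOX, low replicate 1 was above low replicate 2 and that above both high libraries. The same order, chosen after these values were seen, held in 8 of the 21 genes of oxygen sensing and hypoxia. Over all genes tested the share was 16.2%. The order was not particular to that list, as it held in 4 of 8 cofactor genes and 5 of 17 folding and hydroxylation partners. In the other lists it held in 1 of 11 export, 0 of 7 fibrillar collagen, 2 of 13 network collagen and 0 of 15 elastic fibre genes. HIF1A itself overlapped between the groups, as did P4HA1 and PLOD2.

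Cofactor genes showed no common direction. Of 8 tested genes of ascorbate and iron supply, 4 were lower and 4 higher in high G0/G1 cells, their median lying at -0.05 on the log2 scale. TFRC, the transferrin receptor, had 39.9 and 14.4 CPM in high against 170 and 90.3 CPM in low G0/G1 cells (-2.26 ± 0.58, SE; edgeR adjusted p = 0.173; DESeq2 adjusted p = 0.00296). GULO, the last enzyme of ascorbate synthesis, had 4.86 and 1.40 CPM against 10.8 and 8.77 CPM (-1.64 ± 0.65). With 1 library left out TFRC ran from -3.19 to -1.68 and GULO from -2.80 to -1.01. The iron transporter gene SLC11A2 had -0.51 ± 0.21. FTH1, the ferritin heavy chain, stood at 4697 and 4288 CPM against 3215 and 2449 CPM (0.67 ± 0.27). EdgeR called 0 after adjustment, with 1 lower and 0 higher at an unadjusted p under 0.05, whereas DESeq2 called 1, TFRC, with 3 lower and 1 higher without high replicate 1 and 0 without low replicate 1. Leaving out high replicate 1 was also the only omission under which edgeR called members of these lists. It was likewise the only one under which edgeR called any gene of the whole table, so such calls are not particular to these lists.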

How the data were processed

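What the authors deposited is a single table of whole-number counts of reads, 1 row per gene symbol and 1 column per library. The submitters' processing notes name HISAT2 and the assembly Sscrofa11.1. How reads were counted, on which annotation release and with which strand setting, is not given in the sources used here. Reads shared with overlapping or near-identical genes may be split in unknown ways. Columns were matched to samples by title, and replicate numbers follow the listed order. Coordinates are RefSeq's for the same assembly.

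High was compared with low G0/G1 over the whole table with edgeR 4.0.16 (R 4.3.3) by glmQLFit and glmQLFTest after TMM scaling, on genes kept by filterByExpr (minimum count 10, minimum total 15). P-values were adjusted by the Benjamini-Hochberg method, with a threshold of 0.05. DESeq2 1.42.0 and limma 3.58.1 (voom) were run on the same genes. Standard errors were taken as the size of the log2 fold change divided by the square root of F. The edgeR, DESeq2 and limma-voom tests were first run on simulated data holding 200 changed genes, while the exact permutation test was not. Ratios between enzymes used counts plus 0.5 on the log2 scale, with scipy 1.17.1 for the exact permutation test. Each list names up to 4 members with the smallest p among those averaging a log2 CPM of 1 or more. Other genes were named after their values were seen. The members and lists were chosen with earlier results of these data known.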

Additional observations from a re-analysis of the deposited data

How the results depend on the processing

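With all 4 libraries edgeR called 0 genes in either direction under each scaling, as did limma-voom. Without the filter on low counts edgeR called 2 higher (ADAMTSL1 and SHROOM1) and 3 lower (CNGA3, GJA5 and SCUBE3). With the filter in place DESeq2 called 767 higher and 725 lower. With 1 library left out edgeR called from 0 to 363 genes higher and from 0 to 591 lower, the highest counts without high replicate 1. DESeq2, in fits added after the data were seen, then called 982 higher and 1261 lower. Leaving out high replicate 2, low replicate 1 or low replicate 2 instead gave 391, 315 or 202 higher and 470, 115 or 141 lower. Among the enzyme genes edgeR called 0 under each of these settings, while DESeq2 called 2 lower, and 2, 3, 0 and 2 in the same order. A lone library in a group is assumed to vary like the other group.

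Over 120 alternative estimates for the 8 tested enzyme genes, 99 kept direction and side of the threshold, 9 gained a call, each with DESeq2, and 12 changed sign. P4HA1 was -0.021 with unscaled totals, -0.013 without the filter, -0.12 with limma-voom and from -0.84 to 0.52 with 1 library left out. Under DESeq2 it was -0.82 when high replicate 2 was left out and -0.29 when low replicate 2 was. With 1 library left out PLOD2 ran from -0.22 to 0.70, LOXL1 from -3.14 to 0.38, COL1A2 from -4.14 to 1.34, COL1A1 from -3.59 to 0.94, COL11A1 from -1.81 to 0.0061 and COL3A1 from -3.89 to 2.25, each changing sign without low replicate 2, and MFAP2 from -0.31 to 2.83, changing sign without high replicate 1. With DESeq2 those changed signs were -0.25 for PLOD2, 0.35 for LOXL1, 1.31 for COL1A2, 0.91 for COL1A1, 2.22 for COL3A1 and -0.26 for MFAP2. The cause was not tested. The median over all genes tested lay between -0.05 and 0.02 under each scaling. The titles of the libraries numbered alike share a digit or a letter across the groups, whose meaning is not stated, and their deviations correlated at 0.236 across all genes tested, which are not independent. A fit with that replicate block, added after the data were seen, called 0 genes in either direction with edgeR (1587 higher and 1821 lower at an unadjusted p under 0.05). P4HA1 changed sign to -0.12, while the estimates of the other 35 enzyme and named genes kept direction. LOXL2 was -2.22 ± 0.50 (SE, edgeR adjusted p = 0.126) with the block, against -2.26 ± 1.18 (SE) without it. Low counts limit P4HA3, while the low libraries differed from each other beyond counting error in LOX, LOXL1 and LOXL2.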

Other observations

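A pair of genes outside the named set, picked after their values were seen, differed sharply between libraries of the same group. LOXL4, a lysyl oxidase relative on the partner list, had 63.9 and 1.51 CPM in the high G0/G1 libraries and 186 and 0.624 CPM in the low ones, so replicate 1 of each group was high and replicate 2 low. LOXL3 had 99.0 and 64.5 CPM against 80.1 and 65.8 CPM, with overlapping groups. COL24A1, a minor fibrillar collagen, had 271 counts in high replicate 1, 0 in high replicate 2, and 0 and 3 counts in the low libraries.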
